A study of Mus musculus with 12 samples.

Results

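The ubiquitin-specific proteases are the largest family of deubiquitinases, the enzymes that take ubiquitin off proteins. The family was taken here as every gene of the deposited expression table whose mouse symbol is Usp followed by a number, with or without further letters, except Usp9x, Usp9y and Usp18. That gave 52 members among 19212 genes. The rule reads the symbol alone, so it also takes in Usp6nl, which encodes a Rab GTPase-activating protein and no protease, and Usp39, Usp53 and Usp54, which have long been held to lack protease activity.

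Messenger RNA was measured in 12 mouse libraries labelled as lung cancer, 4 groups of 3. In the groups NC and OTUB1_KD, Lewis lung carcinoma cells (LLC, a transplantable mouse lung tumour line) had received a negative control lentivirus or an OTUB1 knockdown lentivirus before mouse lung cancer models were built from them. The libraries of the groups Blank and SFD@M are labelled as tumour tissue of mice given physiological saline or SFD@M, an agent that the labels do not describe. The titles of the Blank libraries also carry a code with the letters KD, and the labelled treatment was followed here. The genotype label is WT for NC, Blank and SFD@M, and the series title ties the work to deubiquitination, ferroptosis and immune therapy. No age, sex, dose or time is labelled, and a knockdown lentivirus acts in the injected carcinoma cells while the host keeps its own Otub1. The labels do not state whether each library is a mouse of its own. The p-values below therefore reflect the spread among these libraries, part or all of which may be technical.

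A ubiquitin-specific protease holds a cysteine in a hand-shaped catalytic domain and cuts the bond between ubiquitin and a lysine of its target, or between the ubiquitins of a chain. Members differ in what they bind: some edit chains at the proteasome, others remove ubiquitin from histones, from the p53 regulator MDM2, from receptors on endosomes or from the mitochondrial surface. Several are raised or lowered through the cell cycle, and several are studied as drug targets in cancer.

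The libraries held 16062805 to 18028815 counts, of which the 52 members took between 0.2168% and 0.3937%. The targeted gene, Otub1, stood at 76.2 ± 3.28 CPM (read counts scaled to a common library total; mean ± SD, n = 3) in NC and 58.6 ± 12.7 in OTUB1_KD, a log2 fold change of -0.36 ± 0.18 (SE) that did not pass the test (edgeR, adjusted p = 0.112). In the treatment experiment it was at 75.2 ± 2.34 in Blank and 46.1 ± 1.12 in SFD@M (-0.71 ± 0.05, adjusted p = 5.8e-06). The groups differed in markers of tissue. For 10 leukocyte genes the summed level was 7.28 to 8.56 CPM in NC and 3.32 to 4.58 in Blank, with Cd3e and Ncr1 at 0 in both. OTUB1_KD had 3500 to 8850 and SFD@M 4850 to 5350, and all 10 genes reached 1 CPM there. The sum of 9 alveolar epithelial genes lay at 71.8 to 79.8 in NC and 64.6 to 67.6 in Blank, with Sftpd at 0 in both. It was 10800 to 26700 in OTUB1_KD and 24500 to 26700 in SFD@M. Endothelial and airway markers were likewise low in NC and Blank (at most 5.51 CPM) and at 1080 or more in the other groups, while 6 fibroblast genes were present in every group (1620 to 5070). Over 6 genes of dividing cells the sum was 2500 to 2580 in NC and 2590 to 2650 in Blank, but 807, 181 and 311 in OTUB1_KD replicates 1, 2 and 3 and 24.9 to 86.1 in SFD@M. Over 4 Y-linked genes it was 340 to 375 in NC and Blank, 127, 0.636 and 24.5 in OTUB1_KD and 0.177 to 1.64 in SFD@M. Red cell genes reached 5470 to 10600 CPM in OTUB1_KD and 9.48 to 180 in SFD@M. All 4 groups carry the same tissue label, yet the leukocyte, endothelial and airway markers that tumour tissue grown in a lung would hold were nearly absent from NC and Blank. Whether NC and Blank are tissue as labelled is therefore in doubt, and every comparison with them is read with that limit. The tissue makeup and the knockdown, or the treatment, therefore cannot be told apart in the values below. In bulk RNA, fewer cells of a type and less RNA per cell cannot be told apart either.

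Promoter windows were available for 41 of the 52 members in the RefSeq table for the build GRCm38.p6, which is not the authors' build (GRCm39). Each window is the 250 bases before an annotated start. The 5 windows below belong to members on which the results turn and were chosen after their values were seen. Usp37 was lower in both experiments, Usp11 and Usp13 were higher in both, Usp2 had the widest difference between the experiments among the members that passed the test of it, and Usp17la went to 0 counts in SFD@M. They are written 5′ to 3′ on the strand of the gene, in lower case, with matches to the searched motifs in capitals.

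Usp37 (chr1:74505822-74506071, minus strand)
Usp37: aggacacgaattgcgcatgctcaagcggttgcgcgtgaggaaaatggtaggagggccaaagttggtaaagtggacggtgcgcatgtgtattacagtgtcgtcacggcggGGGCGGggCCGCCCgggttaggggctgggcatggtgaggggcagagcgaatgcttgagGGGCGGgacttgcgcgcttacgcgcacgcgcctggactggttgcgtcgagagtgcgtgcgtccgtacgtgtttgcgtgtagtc
Usp11 (chrX:20703659-20703908, plus strand)
Usp11: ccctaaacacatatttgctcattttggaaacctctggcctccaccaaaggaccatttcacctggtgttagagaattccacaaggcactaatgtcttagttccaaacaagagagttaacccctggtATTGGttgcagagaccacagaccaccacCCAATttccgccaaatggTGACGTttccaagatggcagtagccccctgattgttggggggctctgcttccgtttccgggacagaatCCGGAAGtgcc
Usp13 (chr3:32817376-32817625, plus strand)
Usp13: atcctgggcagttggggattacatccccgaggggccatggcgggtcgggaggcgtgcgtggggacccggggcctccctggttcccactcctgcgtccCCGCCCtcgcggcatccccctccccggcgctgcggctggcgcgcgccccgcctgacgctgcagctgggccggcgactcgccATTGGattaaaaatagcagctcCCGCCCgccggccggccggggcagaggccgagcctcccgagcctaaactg
Usp2 (chr9:44084670-44084919, plus strand)
Usp2: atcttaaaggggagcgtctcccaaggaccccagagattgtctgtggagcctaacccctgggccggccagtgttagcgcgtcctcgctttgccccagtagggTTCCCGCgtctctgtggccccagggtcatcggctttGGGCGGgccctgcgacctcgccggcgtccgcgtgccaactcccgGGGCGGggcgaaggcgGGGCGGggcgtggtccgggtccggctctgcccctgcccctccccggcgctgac
Usp17la (chr7:104856766-104857015, plus strand)
Usp17la: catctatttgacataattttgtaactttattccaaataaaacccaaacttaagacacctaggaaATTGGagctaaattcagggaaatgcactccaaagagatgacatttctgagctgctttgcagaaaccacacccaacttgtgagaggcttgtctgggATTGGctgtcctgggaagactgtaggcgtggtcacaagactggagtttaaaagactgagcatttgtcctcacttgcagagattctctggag

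The motifs were searched on both strands: CCAAT box (CCAAT), GC box (GGGCGG), E box (CACGTG), E2F core (TTCCCGC or TTGGCGC), ETS core (CCGGAAG), CRE core (TGACGT) and TATA box (TATAAA). Motifs were allowed to overlap. The GC box was in 27 of the 42 windows of the 41 members (64.3%), against 32.7% of all 32851 windows in the table and 54.3% of the 14948 windows of genes tested in the fits. The CCAAT box was in 11 of 42 (26.2%), against 33.8% and 35%, and the TATA box in 5 of 42 (11.9%), against 12.4% and 7.08%. The E2F core was in 5 windows (11.9%, against 5.62% and 9.04%) and the ETS core in 7 (16.7%, against 6.91% and 12%). The E box and the CRE core were in 4 windows each (9.52%), against 6.02% and 6.47% of all windows and 7.71% and 8.98% of those of tested genes. CG dinucleotides had a median of 22.5 in the members' windows, 14 in those of tested genes and 6 in all windows. Among those printed, Usp37 and Usp13 had 28, Usp2 25, Usp11 5 and Usp17la 1. The Usp37 window held 3 GC boxes, 141, 133 and 83 bases before the start, and the Usp2 window held 3 GC boxes and an E2F core 149 bases before it. The Usp11 window held 2 CCAAT boxes, a CRE core and an ETS core, the last of them 11 bases before the start. These matches describe letters in a window and show no binding.

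Levels per length were compared by TPM, a unit that divides reads by transcript length and gives every library the same sum, added up over the transcripts of a gene. Members with at least 1 TPM numbered 43 in each NC and OTUB1_KD library, 41 in each Blank library and 42 or 43 in SFD@M. Their summed TPM was 1344.97 to 1367.83 in NC and 1527.42 to 1530.56 in Blank, and 736.42 to 959.22 in OTUB1_KD and 746.39 to 804.19 in SFD@M. The highest library of the latter 2 groups was thus below every library of NC and Blank.

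Usp39, a component of the U4/U6.U5 particle of the spliceosome, had the highest TPM of the family in NC (149 ± 8.41, SD, n = 3), in Blank (182 ± 1.75) and in OTUB1_KD (51.2 ± 23.8). In SFD@M it had rank 10, at 29.3 ± 2.10 TPM, and Usp4 led with 43.1 ± 2.44. The lead of Usp39 in NC and Blank was far wider than the spread, since the next member was at 71.3 ± 2.34 in NC (Usp15) and 97.2 ± 2.52 in Blank (Usp1). In OTUB1_KD the order at the top was within the spread: Usp4 at 45.3 ± 6.03 and Usp5 at 41.4 ± 9.39 TPM followed Usp39, whose SD spanned both. In SFD@M, the libraries of Usp4, Usp8 (40.98 ± 0.462) and Usp7 (39.4 ± 2.61) overlapped, so these 3 have no clear order.

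**Figure D1:**
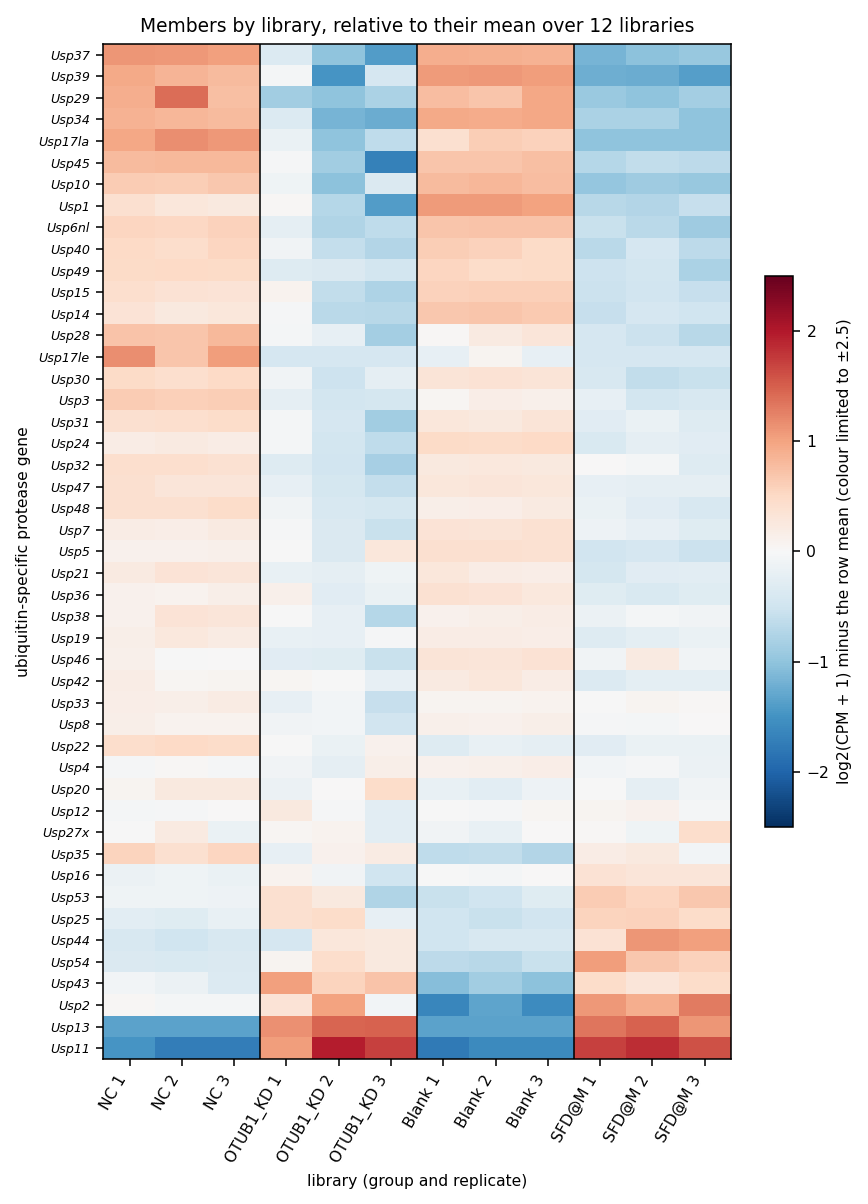
Each row is a member that reached 1 CPM in at least 1 library (47 genes) and each column a library, and colour gives log2(CPM + 1) minus the row's mean over the 12 libraries, red above and blue below. Most rows are red in the NC and Blank columns and blue in the OTUB1_KD and SFD@M columns, a few at the foot are reversed, and OTUB1_KD replicate 1 is paler than replicates 2 and 3 in most of the upper rows.

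The first comparison asked how the family stood in the knockdown libraries against their control. Of 46 members tested, 28 passed the test in OTUB1_KD against NC, 4 higher and 24 lower (edgeR quasi-likelihood test, Benjamini-Hochberg adjusted p under 0.05). Of all 14785 genes tested 65.7% passed, 39.9% higher and 25.8% lower. The share of members that passed was near that background, while their split by direction was not: 52.2% of the members were lower and 8.7% higher. The members' median log2 fold change was -0.50, against 0.16 over all genes. Some members pass the filter on low counts through 1 group alone and then had to differ. Among the 41 members with at least 1 CPM in both groups, 2 were higher and 21 lower, with a median of -0.47. The restriction was not applied to all genes, so the shares over all genes above are not its background. The groups did not overlap for 36 members, 78.3% of those tested, against 79.3% of all genes.

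In SFD@M against Blank, 41 of 46 members passed the test, 10 higher and 31 lower. Of all 14824 genes 88.1% passed, 49.5% higher and 38.7% lower, so that here too the share that passed was near the background and the split was not. The median log2 fold change was again -0.50, against 0.23 over all genes. Among the 41 members with 1 CPM in both groups 7 were higher and 29 lower, with a median of -0.53. Here too that restriction was not applied to all genes. The groups did not overlap for 41 members (89.1%, against 90.2% of all genes). Changes of at least 2-fold were fewer, 21 members in SFD@M (45.7%, against 57.4% of all genes) and 13 in OTUB1_KD (28.3%, against 47.6%). By direction they were 13 lower and 8 higher in SFD@M (28.3% and 17.4% of members, against 20.5% and 36.9% of all genes), and 10 lower and 3 higher in OTUB1_KD (21.7% and 6.52%, against 14.7% and 33%). Among the 45 members tested in both comparisons, which share no library, the same 22 were lower in both. They were 95.7% of the 23 lower in OTUB1_KD and 71% of the 31 lower in SFD@M, and over all 14504 genes tested in both these shares were 91.1% and 59.6%. The 22 include Usp17la and Usp29, which passed the filter only through the controls. Usp11, Usp13, Usp43 and Usp54 were higher in both, 100% of those higher in OTUB1_KD and 44.4% of the 9 higher in SFD@M, against 94.6% and 77.7% of all genes. Among them Usp13 had 0 counts in every control library. It passed the filter only through OTUB1_KD and SFD@M, so its calls were fixed. No member passed the test in opposite directions. Usp12, Usp20, Usp27x and Usp33 passed in neither.

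**Figure D2:**
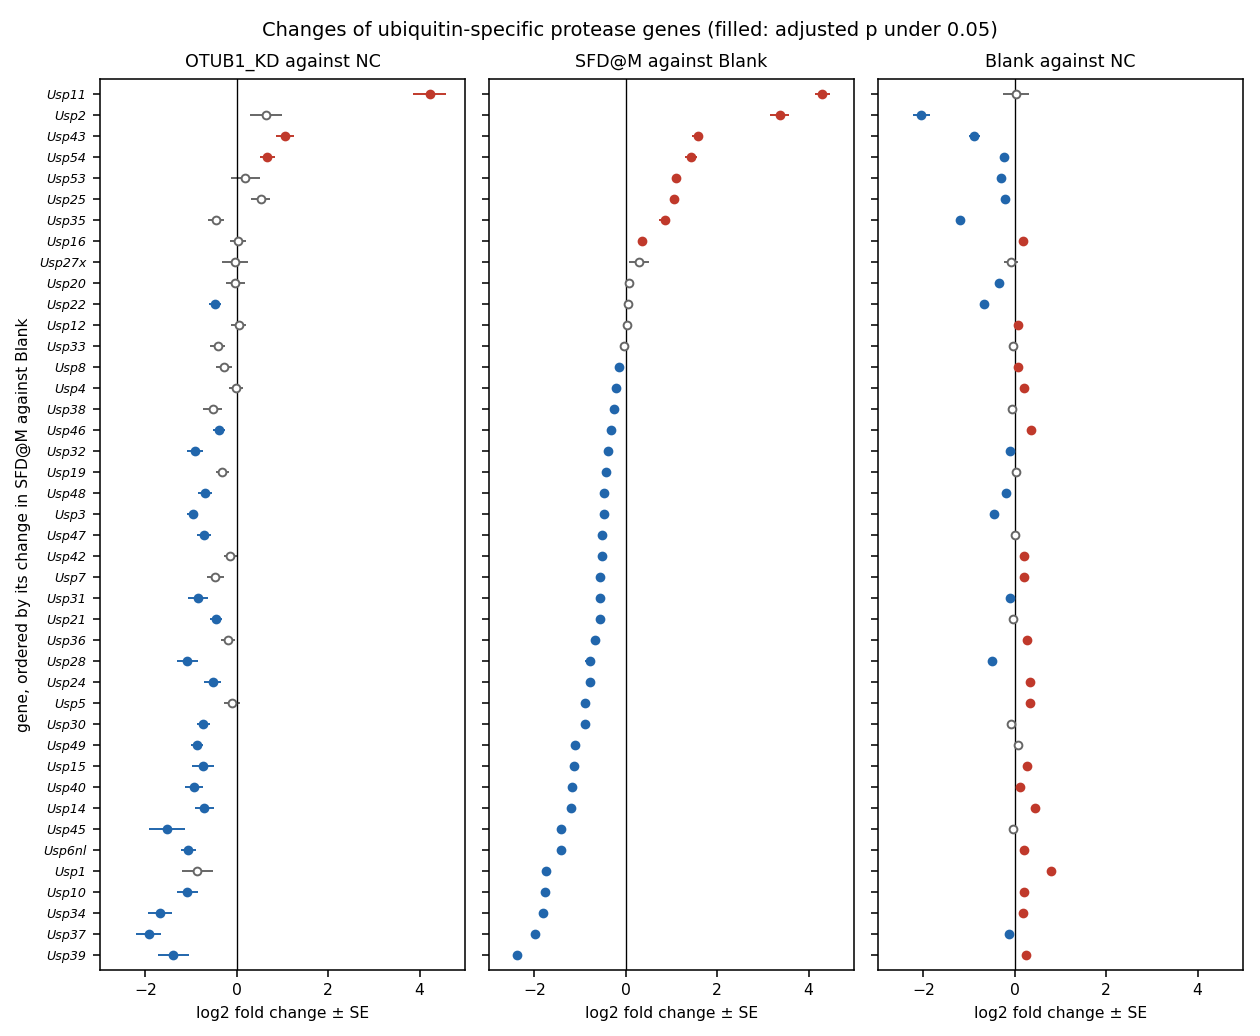
Points give the log2 fold change of 42 members and bars its SE in 3 comparisons of 3 against 3 libraries, filled red where higher and blue where lower at an adjusted p under 0.05 and open otherwise; members with 0 to 3 counts in a group are left out. Most points lie left of 0 in the first 2 panels, with longer bars for OTUB1_KD, and close to 0 in the panel of Blank against NC apart from Usp2, Usp35, Usp43, Usp22 and Usp1.

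All 3 members named for splicing fell in SFD@M (median log2 fold change -1.14, against 0.23 over all genes). In OTUB1_KD, 2 of the 3 fell (median -0.75, against 0.16). Of all genes 38.7% were lower in SFD@M and 25.8% in OTUB1_KD. Usp39 was at 207, 193 and 186 CPM in the NC libraries and 103, 37.7 and 80.02 in OTUB1_KD, a fall in which the groups did not overlap (log2 fold change -1.39 ± 0.34, adjusted p = 0.00992). It was at 225, 226 and 223 CPM in Blank and 45.02, 44.9 and 40.5 in SFD@M, where it stood at 19.3% of the control (-2.38 ± 0.06, adjusted p = 2.2e-08), the largest fall among members with at least 1 CPM in both groups. Usp15, which acts on SMAD signalling and with the splicing factor SART3, was at 142, 138 and 135 CPM in NC and 113, 68.7 and 62.3 in OTUB1_KD (-0.75 ± 0.24, adjusted p = 0.0286). That call was lost in 5 of 6 fits that left out a library, among them the fit without OTUB1_KD replicate 2 (adjusted p = 0.0838). In SFD@M, Usp15 was at 73.6, 75.7 and 70.9 CPM against 159, 161 and 162 in Blank (-1.14 ± 0.05, adjusted p = 2.0e-07), with no overlap. Usp4, the paralogue of Usp15 that also binds SART3, was at 115, 119.7 and 115 CPM in NC and 109.6, 100.4 and 129.8 in OTUB1_KD, groups that overlapped (-0.02 ± 0.15, adjusted p = 0.902). It was at 112, 115 and 106 CPM in SFD@M and 127, 127 and 132 in Blank, a small fall (-0.22 ± 0.05, adjusted p = 0.00319) that missed the threshold when all 12 libraries shared a spread (adjusted p = 0.077).

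Of 5 members tied to cell division, 2 were lower and 1 higher among the 4 tested in OTUB1_KD (of all genes, 25.8% and 39.9%). In SFD@M, 3 were lower and 2 higher (of all genes, 38.7% and 49.5%). The higher ones were Usp13, in both, and Usp44, in SFD@M; these had 0 to 2 counts over a control group and passed the filter only through the group where they are high, so their calls were fixed. Usp37, which stabilises cyclin A at the start of S phase, fell in both experiments. It was at 121, 119.5 and 115 CPM in NC and 43.9, 27.6 and 20.6 in OTUB1_KD (-1.93 ± 0.28, adjusted p = 0.00099), and at 107, 105 and 104 in Blank and 24.7, 26.9 and 28.7 in SFD@M (-1.98 ± 0.07, adjusted p = 8.6e-08). Every library of OTUB1_KD and SFD@M was below every library of NC and Blank, and OTUB1_KD replicate 1 was the highest of its group. Usp28, a stabiliser of MYC and partner of 53BP1, was at 42.1 ± 1.78 CPM (SD, n = 3) in NC and 19.5 ± 5.51 in OTUB1_KD (-1.08 ± 0.23, adjusted p = 0.00601), and at 28.5 ± 2.75 in Blank and 16.7 ± 1.70 in SFD@M (-0.78 ± 0.11, adjusted p = 0.00023). The dividing-cell markers were lower with Usp37 and Usp28, and opposite to Usp13 and Usp44 (2500 to 2650 CPM in NC and Blank, 24.9 to 807 in the other groups), and their part in the result was not tested.

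Usp1, Usp12 and Usp46 are activated by the WD-repeat protein WDR48. Usp1, which removes ubiquitin from FANCD2 and PCNA after DNA damage, was at 127, 118 and 114 CPM in NC and 98.6, 58.6 and 35.99 in OTUB1_KD. The groups did not overlap, yet the spread within OTUB1_KD was wide and the difference missed the threshold (-0.87 ± 0.34, adjusted p = 0.0564); without OTUB1_KD replicate 1, the library with the most dividing-cell transcripts, it passed (log2 fold change -1.31, adjusted p = 0.00466). In SFD@M, Usp1 fell from 203, 204 and 194 CPM in Blank to 58.9, 57.98 and 64.1 (-1.74 ± 0.06, adjusted p = 7.6e-08). Usp12, at 78.1 ± 1.53, 79.2 ± 14.1, 80.02 ± 2.27 and 82.02 ± 4.62 CPM in NC, OTUB1_KD, Blank and SFD@M, passed the test in neither experiment (0.04 ± 0.16, adjusted p = 0.827 and 0.03 ± 0.06, adjusted p = 0.643). Usp46, its close paralogue, was at 73.2 ± 3.75 and 54.8 ± 5.86 CPM in NC and OTUB1_KD (-0.39 ± 0.14, adjusted p = 0.0457) and 90.1 ± 1.99 and 72.2 ± 9.34 in Blank and SFD@M (-0.33 ± 0.09, adjusted p = 0.00891). The call of Usp46 in OTUB1_KD was lost without any of the 3 NC libraries in turn (adjusted p up to 0.157). The cofactor Wdr48 itself fell in both, from 112 ± 2.55 to 61.9 ± 9.94 CPM in OTUB1_KD (-0.84 ± 0.15, adjusted p = 0.00281) and from 111 ± 4.32 to 61.4 ± 0.776 in SFD@M (-0.86 ± 0.05, adjusted p = 1.4e-06).

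**Figure D3:**
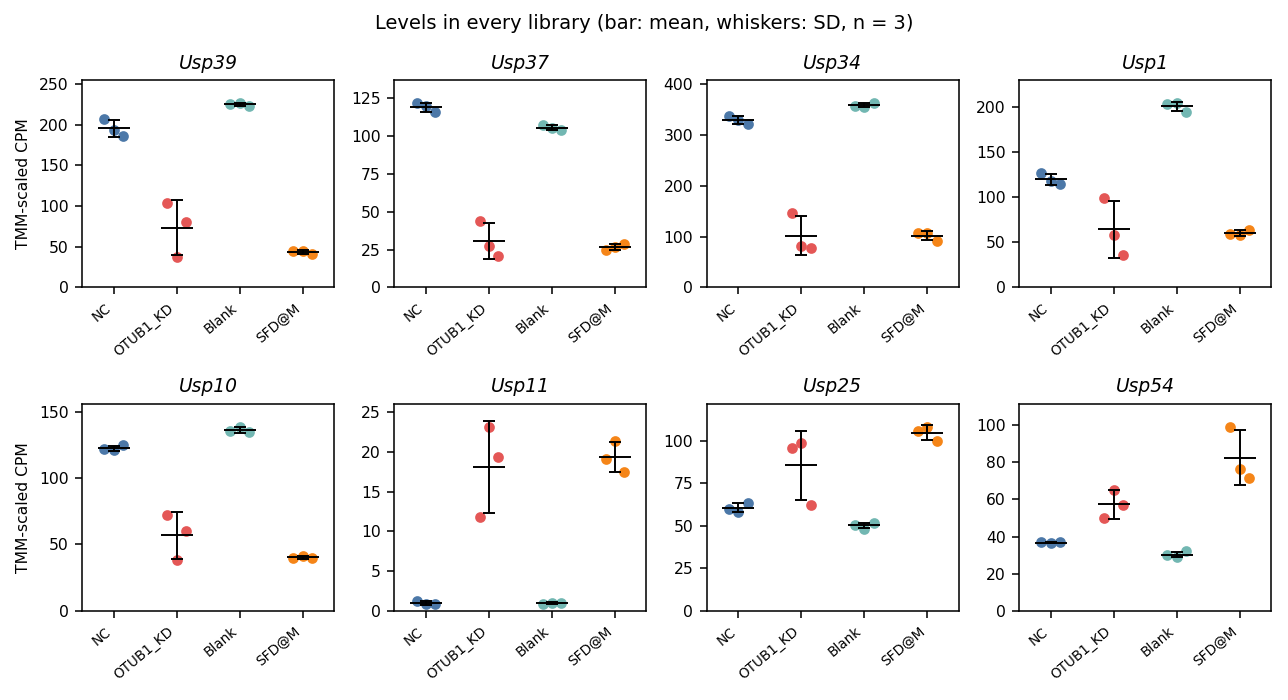
Points are single libraries of 8 members in TMM-scaled CPM on a linear axis from 0, bars the group means and whiskers the SD (n = 3). Usp39, Usp37, Usp34, Usp1 and Usp10 lie lower in OTUB1_KD and SFD@M than in NC and Blank, Usp11, Usp25 and Usp54 lie higher apart from Usp25 in OTUB1_KD replicate 3, and for most members the points of OTUB1_KD spread most widely.

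Of the members that handle free ubiquitin chains and the proteasome, Usp5 fell and Usp13 rose in SFD@M, and Usp14 fell in both experiments. Usp5, which takes apart unanchored chains, was at 95.1, 96.01 and 97.3 CPM in NC and 88.3, 68.6 and 108 in OTUB1_KD, groups that overlapped (-0.10 ± 0.18, adjusted p = 0.629). In SFD@M it fell from 118, 117 and 116 CPM in Blank to 63.4, 66.01 and 61.2, with no overlap (-0.89 ± 0.05, adjusted p = 9.9e-07). Usp13, its paralogue, had 0 counts in every NC and Blank library. It was at 4.56, 5.86 and 5.98 CPM in OTUB1_KD and 5.32, 6.00 and 4.39 in SFD@M, 296 and 272 counts over the 3 libraries. Against a floor of 3 counts over the control group, Usp13 was at least 93-fold higher in OTUB1_KD and at least 91.7-fold higher in SFD@M. Since Usp13 passed the filter only through these groups, a test had to find it different. Usp14, which sits on the proteasome and trims chains before degradation, was at 113, 107 and 109 CPM in NC and 87.8, 55.7 and 54.9 in OTUB1_KD (-0.71 ± 0.21, adjusted p = 0.0203), a call lost in 4 of 6 fits without a library, such as that without OTUB1_KD replicate 2 (adjusted p = 0.0576). In SFD@M it was at 59.4, 66.6 and 63.5 CPM against 144, 146 and 142 in Blank (-1.20 ± 0.06, adjusted p = 4.1e-07).

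All 7 members listed under p53 and MDM2 passed the test in SFD@M, 6 lower and Usp2 higher, and 3 of 7 were lower in OTUB1_KD. They were Usp2, Usp4, Usp7, Usp10, Usp15, Usp28 and Usp42. Of these, Usp4 and Usp15 were also counted under splicing and Usp28 under cell division. Of all genes 88.1% passed in SFD@M and 38.7% were lower, and 25.8% were lower in OTUB1_KD. The median log2 fold change of the 7 members was -0.56 in SFD@M and -0.47 in OTUB1_KD, beside 0.23 and 0.16 over all genes. Usp10, which takes ubiquitin off p53 in the cytoplasm, was at 122, 121 and 125 CPM in NC and 72.1, 37.95 and 60.3 in OTUB1_KD (-1.09 ± 0.23, adjusted p = 0.00548). It fell from 135, 139 and 134 CPM in Blank to 39.7, 41.6 and 39.8 in SFD@M (-1.76 ± 0.05, adjusted p = 3.4e-08), and its binding partner G3bp1 was lower in both comparisons as well (-0.99 ± 0.24, adjusted p = 0.0102, and -1.61 ± 0.11, adjusted p = 3.9e-06). Usp7, the protease of both p53 and MDM2, was at 199.7 ± 4.05 CPM in NC and 142 ± 27.2 in OTUB1_KD (-0.47 ± 0.18, adjusted p = 0.0522), and at 223 ± 4.53 in Blank and 151 ± 10.03 in SFD@M (-0.56 ± 0.06, adjusted p = 4.7e-05). Usp42 stood at 29.1 ± 1.46 CPM in NC and 26 ± 2.39 in OTUB1_KD (-0.14 ± 0.15, adjusted p = 0.435), and at 32.01 ± 1.08 in Blank and 22.2 ± 0.929 in SFD@M (-0.53 ± 0.07, adjusted p = 0.00015).

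Usp2, which stabilises MDM2 and cycles with the circadian clock, was among the members furthest apart between experiments. It was at 5.25, 4.93 and 4.88 CPM in NC and 6.76, 11.2 and 4.86 in OTUB1_KD, groups that overlapped (0.63 ± 0.35, adjusted p = 0.151). Without OTUB1_KD replicate 3 that difference passed the test (log2 fold change 0.87, adjusted p = 0.0455), and without OTUB1_KD replicate 2 it was 0.21 (adjusted p = 0.448). Blank held much less Usp2, 0.986, 1.46 and 1.05 CPM, and SFD@M 11.9, 10.4 and 14.1, a rise of 10.3-fold (3.37 ± 0.21, adjusted p = 2.2e-06). The difference between the 2 log2 fold changes was 2.77 ± 0.42 (SE; interaction term of edgeR, adjusted p = 0.00214), and it passed in all 12 fits that left out a library.

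Members that act on histones H2A and H2B were split. Of 9, 7 could be tested in OTUB1_KD, with 0 higher and 4 lower (of all genes, 39.9% and 25.8%). In SFD@M 8 could be tested, with 2 higher and 4 lower (of all genes, 49.5% and 38.7%). Usp3, an H2A protease, was at 102, 98.3 and 99.6 CPM in NC and 55.8, 46.96 and 47.8 in OTUB1_KD (-0.97 ± 0.13, adjusted p = 0.00076), and at 67.1, 72.96 and 71.5 in Blank and 56.6, 47.3 and 49.04 in SFD@M (-0.48 ± 0.08, adjusted p = 0.00066). Usp49, an H2B protease, was at 41.8, 42.2 and 41.6 CPM in NC and 23.6, 22.9 and 21.3 in OTUB1_KD (-0.87 ± 0.13, adjusted p = 0.00132), and at 43.7, 41.4 and 41.6 in Blank and 20.6, 21.4 and 16.8 in SFD@M (-1.11 ± 0.10, adjusted p = 1.4e-05). Neither gene's libraries overlapped between a group and its control. Usp21 fell as well, from 42.9 ± 1.57 to 30.9 ± 1.27 CPM in OTUB1_KD (-0.45 ± 0.13, adjusted p = 0.0185) and from 40.7 ± 1.77 to 27.5 ± 1.85 in SFD@M (-0.57 ± 0.07, adjusted p = 0.00015); the first call was lost without any 1 of the NC libraries (adjusted p up to 0.0915).

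Usp16, the H2A protease needed for mitosis, went the other way in SFD@M. It was at 45.1, 43.8 and 45.7 CPM in Blank and 59.1, 56.6 and 56.6 in SFD@M, a small rise without overlap (0.35 ± 0.05, adjusted p = 0.00035), which missed the threshold when log2(TPM + 1) was tested with limma (0.10, adjusted p = 0.0842). In OTUB1_KD, at 48.6, 42.7 and 31.9 CPM, it overlapped NC, at 40.9, 42.1 and 40.6 (0.02 ± 0.18, adjusted p = 0.934). Usp22, the H2B protease of the SAGA complex, was at 117, 122 and 119 CPM in NC and 85.2, 77.1 and 92.99 in OTUB1_KD (-0.47 ± 0.13, adjusted p = 0.0183), a call lost without any 1 of the NC libraries (adjusted p up to 0.0813) and with a replicate block (adjusted p = 0.0645). It was at 68.9, 75.1 and 73.5 CPM in Blank and 70.7, 76.3 and 77.1 in SFD@M, values that overlapped (0.04 ± 0.06, adjusted p = 0.577); on log2(TPM + 1), where the median of all genes was -0.03 in place of 0.23, it was called lower (-0.22, adjusted p = 0.0132). Usp36, a nucleolar member, was at 59.6 ± 1.20 and 51.3 ± 7.67 CPM in NC and OTUB1_KD (-0.20 ± 0.15, adjusted p = 0.268) and fell from 69.2 ± 3.17 in Blank to 43.4 ± 1.31 in SFD@M (-0.68 ± 0.06, adjusted p = 1.4e-05). Usp27x, a homologue of Usp22 that can take its place outside SAGA, was at 3.65 to 4.45 CPM as a mean of each group and passed in neither comparison. Usp44, an H2B protease that also guards the mitotic checkpoint, had 1, 0 and 1 counts in NC and 1, 13 and 12 in OTUB1_KD replicates 1, 2 and 3. It had 0, 1 and 1 counts in Blank and 14, 35 and 32 in SFD@M. Over the groups it went from 2 counts in NC to 26 in OTUB1_KD, and from 2 in Blank to 81 in SFD@M. The ratios were 12.2 (95% counting interval 3.07 to 106) and 41 (11 to 344), and Usp44 passed the filter in SFD@M through that group alone. These intervals and floors cover counting error only.

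Of 6 members at endosomes, receptors and membranes, 2 were lower in OTUB1_KD and 4 in SFD@M, and 0 were higher. Over all genes 25.8% were lower and 39.9% higher in OTUB1_KD, and 38.7% and 49.5% in SFD@M. Usp6nl, which switches off Rab5 on endosomes, was at 134, 132 and 136 CPM in NC and 78.2, 53.7 and 58.2 in OTUB1_KD (-1.06 ± 0.17, adjusted p = 0.00169), and at 149, 149.9 and 150.1 in Blank and 62.01, 56.6 and 49.2 in SFD@M (-1.43 ± 0.08, adjusted p = 1.3e-06). Usp32, a membrane-bound member that acts on Rab7, was at 101, 102 and 98.1 CPM in NC and 60.4, 53.96 and 42.1 in OTUB1_KD (-0.92 ± 0.17, adjusted p = 0.00295). Its fall in SFD@M, from 89.6, 90.9 and 89.3 to 75.8, 73.05 and 60.02 CPM, was smaller (-0.38 ± 0.09, adjusted p = 0.004). Usp8, which spares receptors from lysosomal sorting, was at 135 ± 3.33 and 109 ± 16.7 CPM in NC and OTUB1_KD (-0.28 ± 0.17, adjusted p = 0.174) and at 136 ± 1.59 and 123 ± 2.48 in Blank and SFD@M (-0.15 ± 0.04, adjusted p = 0.0109). Usp19, anchored in the endoplasmic reticulum in part, was at 169.6 ± 6.59 and 134 ± 9.11 CPM in the first pair (-0.32 ± 0.14, adjusted p = 0.0818) and 167 ± 0.789 and 124 ± 6.49 in the second (-0.43 ± 0.05, adjusted p = 0.0001). The paralogues Usp20 and Usp33, known for recycling adrenergic receptors, missed the threshold in both comparisons (Usp20 -0.03 ± 0.20 and 0.08 ± 0.09; Usp33 -0.42 ± 0.17 and -0.05 ± 0.04).

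Of the 2 members of mitochondria, Usp30 fell in both experiments and Usp35 rose in SFD@M. Usp30, which sits in the outer membrane and opposes the removal of damaged mitochondria, was at 47.7, 46 and 48.1 CPM in NC and 31.8, 23.4 and 29.1 in OTUB1_KD (-0.73 ± 0.15, adjusted p = 0.00522), and at 42.8, 44.2 and 42.6 in Blank and 25.5, 21.7 and 22.8 in SFD@M (-0.90 ± 0.08, adjusted p = 1.2e-05). Usp35 was at 20.01, 17.98 and 19.7 CPM in NC and 11.5, 14.4 and 15.6 in OTUB1_KD, lower in every library although the difference missed the threshold (-0.45 ± 0.18, adjusted p = 0.0638); without OTUB1_KD replicate 1 or replicate 3 it passed (adjusted p = 0.0473 and 0.0354). In SFD@M, Usp35 rose from 8.24, 8.35 and 7.66 CPM in Blank to 15.2, 15.9 and 12.7 (0.85 ± 0.12, adjusted p = 0.00029). The interaction of the 2 changes was 1.33 ± 0.21 (adjusted p = 0.00238) and passed in all 12 fits without a library.

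Outside these groups, Usp34, a very large protease that acts on axin in WNT signalling, fell in both experiments. It was at 338, 330.1 and 323 CPM in NC and 146, 82.3 and 77.8 in OTUB1_KD (-1.68 ± 0.27, adjusted p = 0.00158), and at 358, 354 and 362 in Blank and 107, 107 and 91.9 in SFD@M (-1.82 ± 0.07, adjusted p = 1.6e-07). It was also the most abundant member by reads in NC and Blank, where its long transcript collects many fragments. Usp45, which acts on the repair nuclease subunit ERCC1, was at 99.3, 100.4 and 101 CPM in NC and 55.3, 30.6 and 16.9 in OTUB1_KD (-1.53 ± 0.39, adjusted p = 0.0123), a call lost without OTUB1_KD replicate 2 (adjusted p = 0.0508). In SFD@M it was at 34.4, 36.9 and 35.8 CPM against 93.03, 93.2 and 96.6 in Blank (-1.41 ± 0.05, adjusted p = 1.3e-07).

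Usp24, another very large member, was at 121, 124 and 120.2 CPM in NC and 103, 77.5 and 67.8 in OTUB1_KD (-0.53 ± 0.18, adjusted p = 0.0355), a call lost in 4 of 6 fits without a library (adjusted p up to 0.104) and with library totals in place of TMM (adjusted p = 0.0633). Its fall in SFD@M, from 148, 145 and 151 to 81.7, 91.1 and 86.9 CPM, held in all 6 (-0.78 ± 0.05, adjusted p = 3.6e-06). Usp40 was at 63.8, 61.1 and 65.7 CPM in NC and 42.1, 29.3 and 26.4 in OTUB1_KD (-0.94 ± 0.20, adjusted p = 0.00529), and at 68.6, 67.3 and 62.6 in Blank and 27.8, 33.01 and 28.1 in SFD@M (-1.17 ± 0.08, adjusted p = 4.4e-06). These groups were well apart in both experiments. Usp48, which removes ubiquitin set on H2A by BRCA1, was at 148, 148 and 155 CPM in NC and 105, 84.8 and 82.8 in OTUB1_KD (-0.70 ± 0.15, adjusted p = 0.00575), and at 125, 125 and 131 in Blank and 99.5, 92.3 and 84.2 in SFD@M (-0.47 ± 0.07, adjusted p = 0.00026). Usp47, which stabilises DNA polymerase beta, and Usp31 were lower in both (Usp47 -0.72 ± 0.16, adjusted p = 0.00695 and -0.53 ± 0.04, adjusted p = 9.4e-06; Usp31 -0.84 ± 0.22, adjusted p = 0.014 and -0.56 ± 0.06, adjusted p = 5.7e-05). Usp38 missed the threshold in OTUB1_KD (-0.53 ± 0.21, adjusted p = 0.0591) and fell slightly in SFD@M (-0.25 ± 0.06, adjusted p = 0.00347).

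The members that rose formed a shorter list. Usp11, a paralogue of Usp4 and Usp15 that acts on the repair proteins PALB2 and BRCA2, was near absent from the controls. It was at 1.23, 0.862 and 0.865 CPM in NC and 11.8, 23.2 and 19.3 in OTUB1_KD (4.22 ± 0.37, adjusted p = 0.00012), and at 0.812, 1.05 and 1.05 in Blank and 19.2, 21.4 and 17.5 in SFD@M (4.30 ± 0.16, adjusted p = 1.4e-07). OTUB1_KD replicate 1 was the lowest library of the raised groups and still stood well above every control library. Usp43 was at 9.91, 9.30 and 8.03 CPM in NC and 22.3, 15.8 and 17.6 in OTUB1_KD (1.05 ± 0.20, adjusted p = 0.00365), and at 4.41, 5.20 and 4.56 in Blank and 14.7, 13.1 and 14.6 in SFD@M (1.57 ± 0.12, adjusted p = 8.0e-06).

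Usp54, 1 of the members long held inactive, was at 36.9, 36.4 and 36.99 CPM in NC and 49.9, 65.2 and 56.9 in OTUB1_KD (0.67 ± 0.16, adjusted p = 0.00804), and at 30.04, 29.03 and 32 in Blank and 99.2, 76.4 and 71.5 in SFD@M (1.43 ± 0.13, adjusted p = 1.6e-05). Its paralogue Usp53, a protein of tight junctions, was at 20.7, 20.8 and 20.4 CPM in NC and 29.8, 26.9 and 12.9 in OTUB1_KD, where replicate 3 lay below all of NC (0.19 ± 0.31, adjusted p = 0.596); without that replicate the difference passed (0.48, adjusted p = 0.0114). In SFD@M it rose from 15.02, 15.6 and 17.9 CPM in Blank to 35.2, 32.8 and 36.4 (1.10 ± 0.09, adjusted p = 9.6e-06). Usp25, the paralogue of Usp28 that acts in immune signalling, was at 60.1, 58.1 and 63.5 CPM in NC and 95.9, 98.7 and 62.3 in OTUB1_KD, again with replicate 3 among the NC values (0.52 ± 0.21, adjusted p = 0.057). Without that replicate it passed (0.71, adjusted p = 0.00266), as it did by DESeq2 (adjusted p = 0.0472). In SFD@M it rose from 50.8, 48.4 and 51.6 CPM in Blank to 106, 108 and 99.8 (1.05 ± 0.06, adjusted p = 7.6e-07). Marker sums had no single order in that group: in replicates 1, 2 and 3 they were 10800, 24400 and 26700 CPM for alveolar, 12300, 31600 and 18600 for airway and 3500, 4810 and 8850 for leukocyte genes, while the leukocyte gene Ptprc was at 221, 224 and 155. Their part in these values was not tested.

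Usp29 and the Usp17 copies were low throughout and lower still in OTUB1_KD and SFD@M. Usp29, an imprinted gene expressed from the paternal copy next to Peg3, was at 2.79, 4.31 and 2.41 CPM in NC and 0.113, 0 and 0.168 in OTUB1_KD. With 5 counts over OTUB1_KD it passed the filter only through NC and had to be called, so no fold is given. In the treatment experiment it had 131 counts in Blank and 3 in SFD@M, a ratio of 43.2 (95% counting interval 14.4 to 212). Usp17la, of a family of near-identical intronless copies first found as cytokine-induced genes of blood cells, was at 2.91, 3.45 and 3.21 CPM in NC and 0.788, 0 and 0.279 in OTUB1_KD, 19 counts over the group. It too passed the filter only through NC, and its call was lost without OTUB1_KD replicate 3 (adjusted p = 0.0566). It had 97 counts in Blank and 0 in SFD@M, at least 32-fold lower. Usp17le was at 2.01, 1.17 and 1.79 CPM in NC and had 0 counts in OTUB1_KD, at least 28-fold lower, and 13 counts in Blank against 0 in SFD@M, at least 4.28-fold lower. Reads of these copies could have been shared among them by the counting, so each copy's value is uncertain.

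The remaining members were too low to test in either experiment. Usp17lb had 7 counts in NC, 1 in OTUB1_KD, 1 in Blank and 0 in SFD@M, Usp17lc was seen in NC replicate 1 alone, and Usp17ld had 12, 3, 7 and 0 counts. Usp50, which lacks residues of the active site, and Usp51, another partner of the SAGA adaptors, reached at most 0.308 CPM in any library. Usp51 had 0 counts in NC and Blank, 5 in OTUB1_KD and 7 in SFD@M.

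Some paralogues from the same branch of the family shifted against each other, here as ratios of TPM within a library, and others did not. Usp25 over Usp28 was 1.36 ± 0.0127 (SD, n = 3) in NC and 4.24 ± 0.373 in OTUB1_KD, and 1.68 ± 0.176 in Blank and 6.01 ± 0.415 in SFD@M. No library of the first of each pair reached those of the second: the highest control library was at 1.88 and the lowest of the others at 3.81. Usp4 over Usp15 was 0.714 ± 0.0327 in NC and 1.36 ± 0.449 in OTUB1_KD, and 0.648 ± 0.0113 in Blank and 1.47 ± 0.0426 in SFD@M. Usp4 over Usp11 was 112 ± 25.5 in NC and 6.39 ± 2.3 in OTUB1_KD, and 125 ± 20.5 in Blank and 5.46 ± 0.327 in SFD@M. Usp36 over Usp42, in contrast, stayed between 1.73 and 2.19 in all 12 libraries. Usp20 over Usp33 and Usp22 over Usp27x overlapped their controls in both experiments. Usp53 over Usp54 overlapped NC in OTUB1_KD, where replicate 1 was at 0.675, but lay below Blank in SFD@M. Usp12 over Usp46 lay above its control in both experiments, and Usp5 over Usp13 had no value in NC and Blank. These ratios were not tested.

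OTUB1_KD replicate 1 stood nearer to NC than its group for most members. Of the 24 members lower in OTUB1_KD, 21 had their highest value of the group in replicate 1, against 80.3% of all 3818 lower genes. Of the 4 higher members, 3 had their lowest value there, against 62.2% of 5903 higher genes. In that library the Y-linked sum was 127 CPM and the dividing-cell sum 807, the highest of its group for both. Without it, 35 members passed the test, 5 higher and 30 lower, with a median log2 fold change of -0.63. The median over all genes in that fit was 0.18. How many of all genes passed in that fit was not counted, so the rise from 28 has no background. Leaving out each of the 6 libraries in turn, 16 of the 24 lower calls and all 4 higher calls held in every fit, and in SFD@M against Blank all 31 and all 10 did. The 8 lower calls not held in every fit were Usp14, Usp15, Usp17la, Usp21, Usp22, Usp24, Usp45 and Usp46. The calls that held include Usp13, Usp17le and Usp29 in OTUB1_KD and Usp13, Usp44, Usp17la and Usp29 in SFD@M. These passed the filter through 1 group alone, so their calls were fixed and their holding shows nothing. The share of all called genes that held was not counted.

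Blank against NC compared the 2 control groups, which differ by experiment and by the lentivirus. Of 45 members tested 34 passed, 18 higher and 16 lower, and of 12087 genes 74.3% passed, 37% higher and 37.2% lower. Most changes were small: the median was -0.03, and 3 members changed at least 2-fold, all lower (6.67%, against 8.84% of all genes in either direction and 7.4% lower). The groups did not overlap for 34 members (75.6%, against 74.9%). The 3 members changed at least 2-fold were Usp17le, with 79 counts over NC and 13 over Blank, Usp2, at 24.2% of NC (-2.05 ± 0.19, adjusted p = 1.8e-16), and Usp35, at 43.6% (-1.20 ± 0.09, adjusted p = 2.9e-21). Usp43 (-0.89 ± 0.12, adjusted p = 3.1e-10), Usp22 (-0.67 ± 0.04, adjusted p = 6.6e-29), Usp28 (-0.51 ± 0.06, adjusted p = 4.3e-13) and Usp3 (-0.45 ± 0.04, adjusted p = 7.6e-19) were also lower in Blank. Usp1 was the member furthest above NC (0.79 ± 0.03, adjusted p = 2.9e-35), followed by Usp14 (0.45 ± 0.03, adjusted p = 4.3e-22). When all 12 libraries shared a spread, 6 members passed, all lower: Usp2, Usp3, Usp17le, Usp22, Usp35 and Usp43. The summed alveolar markers were 71.8 to 79.8 CPM in NC and 64.6 to 67.6 in Blank, those of fibroblasts 2200 to 2300 and 2680 to 2760, and those of dividing cells 2500 to 2580 and 2590 to 2650.

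**Figure D4:**
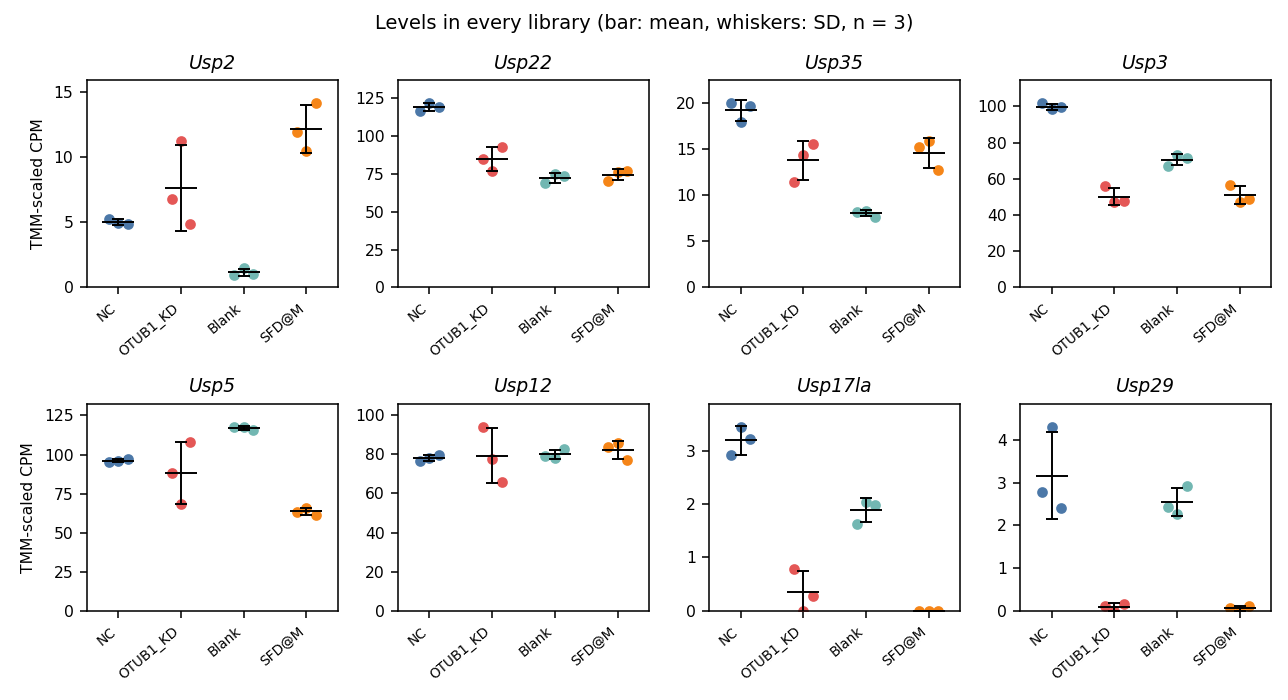
Points are single libraries of 8 members in TMM-scaled CPM on a linear axis from 0, bars the group means and whiskers the SD (n = 3). Usp2, Usp22, Usp35 and Usp3 are lower in Blank than in NC, Usp5 is lower in SFD@M than in every other group, Usp12 has similar means in the 4 groups, and Usp17la and Usp29 are near 0 in OTUB1_KD and SFD@M.

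SFD@M against OTUB1_KD set side by side the 2 groups with lung markers, from different experiments. Of 44 members tested 0 passed (edgeR), and 0.0134% of 14914 genes did. By DESeq2 and by limma on log2(TPM + 1) 0 members passed as well, and 4 members had an unadjusted p under 0.05 by edgeR. These were Usp54 (0.52 ± 0.20, adjusted p = 0.202), Usp16 (0.49 ± 0.19, 0.22), Usp5 (-0.47 ± 0.20, 0.247) and Usp44 (1.69 ± 0.72, 0.248). The groups did not overlap for 14 members (31.8%, against 28.2% of all genes). The wide spread of OTUB1_KD limits this comparison: Usp39, for example, was at 73.7 ± 33.2 CPM in OTUB1_KD and 43.5 ± 2.57 in SFD@M (-0.76 ± 0.34, adjusted p = 0.258). Without OTUB1_KD replicate 2, Usp39 (-1.08, adjusted p = 0.0184) and Usp10 (-0.72, adjusted p = 0.0383) were lower in SFD@M. With a spread shared by all 12 libraries, Usp16 (0.49, adjusted p = 0.0294), Usp46 (0.40, adjusted p = 0.0365) and Usp54 (0.52, adjusted p = 0.0248) were higher, and Usp5 (-0.47, adjusted p = 0.0361) and Usp17la (19 counts in OTUB1_KD and 0 in SFD@M, adjusted p = 0.0425) were lower.

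Whether a member changed by a different amount in the treatment than in the knockdown experiment was tested as an interaction over all 12 libraries. It passed for 7 of 47 members, 6 higher and 1 lower in the treatment than in the knockdown experiment, and for 23.1% of 15304 genes, 12.4% higher and 10.8% lower. The count moved with single libraries: without OTUB1_KD replicate 1, 2 or 3 it was 15, 14 and 12, and without NC replicate 1, NC replicate 2 or Blank replicate 1 it was 4, 3 and 4. Beside Usp2 and Usp35, Usp54 rose more in SFD@M (0.80 ± 0.19, adjusted p = 0.0154) and passed in all 12 fits without a library. Usp5 was the lower member (-0.76 ± 0.19, adjusted p = 0.0189); it missed the threshold without NC replicate 1 or NC replicate 2 (adjusted p up to 0.0517). Usp22 (0.53 ± 0.13, adjusted p = 0.0178) missed it without NC replicate 2 or Blank replicate 1 (adjusted p up to 0.0575). Usp3 (0.52 ± 0.15, adjusted p = 0.0266) and Usp32 (0.57 ± 0.19, adjusted p = 0.0478) were lost in 7 and 8 of 12 such fits, with adjusted p up to 0.0757 and 0.106. For all 7 members the control groups themselves differed, as they did for 34 of 45 members and 74.3% of all genes tested. Blank was lower than NC for Usp2, Usp22, Usp35 and Usp3, as given above. It was also lower for Usp54 (-0.23 ± 0.05, adjusted p = 0.00015) and Usp32 (-0.11 ± 0.03, adjusted p = 0.00414), and higher for Usp5 (0.33 ± 0.03, adjusted p = 4.5e-15). A difference between the controls enters the interaction by its definition, and its part in these calls was not tested.

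Transcripts of a member did not always keep their shares of the gene's TPM, which the authors' software estimated from reads that transcripts share. For Usp1, NM_001356424 held 11.9% ± 1.49 of the gene (SD, n = 3) in NC and 57.4% ± 12.6 in OTUB1_KD, and 30.8% ± 1.82 in Blank and 58.7% ± 5.9 in SFD@M, while NM_001301414 held 54.1% ± 11.1, 26.3% ± 7.09, 46.9% ± 5.22 and 27.6% ± 0.922. In each experiment the groups did not overlap for NM_001356424. For Usp24, NM_183225 went from 31.2% ± 6.3 in NC to 7.47% ± 2.7 in OTUB1_KD and from 24.6% ± 1.72 in Blank to 9.01% ± 1.67 in SFD@M. For Usp4, NM_001311157 was at 22.1% ± 4.32 in NC and 34.3% ± 13.3 in OTUB1_KD, and at 16.6% ± 4.97 in Blank and 47.1% ± 2.66 in SFD@M. For Usp6nl, NM_001080548 was at 55.2% ± 1.3 and 25.2% ± 18.4 in NC and OTUB1_KD and 62.4% ± 1.69 and 29.2% ± 12.8 in Blank and SFD@M. The shares of Usp6nl in OTUB1_KD ran from 6.88% in replicate 3 to 43.7% in replicate 1. Usp39 was listed with its transcript NM_138592 and a copy of it, which had equal TPM in every library. Shares were not tested.

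**Figure D5:**
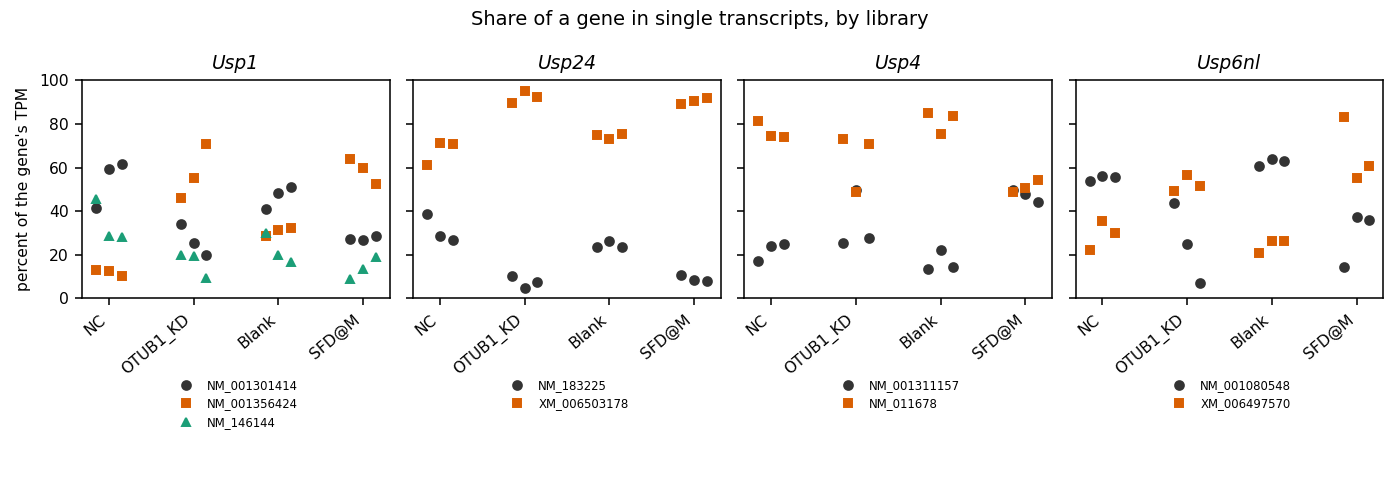
Points give the percent of a gene's TPM in a transcript, by library, for the main transcripts of Usp1, Usp24, Usp4 and Usp6nl, with a symbol for each RefSeq transcript. NM_001356424 of Usp1 leads in OTUB1_KD and SFD@M and is the lowest in NC, NM_183225 of Usp24 and NM_001080548 of Usp6nl are lower in OTUB1_KD and SFD@M than in their controls, and the transcripts of Usp4 meet in SFD@M.

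Other families that remove ubiquitin were counted too, beside 25.8% of all genes lower and 39.9% higher in OTUB1_KD and 38.7% lower and 49.5% higher in SFD@M. Of 11 metalloproteases of the JAMM family, 4 were lower and 0 higher in OTUB1_KD and 10 lower and 0 higher in SFD@M, with medians of -0.48 and -0.73. Of 14 OTU family genes tested, 4 were lower and 3 higher in OTUB1_KD and 7 lower and 5 higher in SFD@M (medians -0.20 and -0.26). The 5 MINDY and ZUP1 genes were all higher in SFD@M (median 0.32), and 1 was higher and 0 lower in OTUB1_KD. Of 4 UCH family genes, 3 were lower in each comparison, Uchl1, Uchl3 and Uchl5 in OTUB1_KD and Uchl3, Uchl5 and Bap1 in SFD@M. Of 3 Josephin genes, 1 was higher and 1 lower in each comparison. Cyld, Uspl1 and Pan2 hold the fold of the family under other names. Of these 3, 1 was higher and 1 lower in OTUB1_KD, and 0 were higher and 1 lower in SFD@M. Of 11 partners of ubiquitin-specific proteases tested, 5 were lower and 2 higher in OTUB1_KD and 8 lower and 3 higher in SFD@M. Gmps, which binds Usp7, fell in both (-1.72 ± 0.38, adjusted p = 0.0063, and -2.42 ± 0.05, adjusted p = 1.8e-08). So did Uchl5, another protease of the proteasome beside Usp14 (-1.38 ± 0.34, adjusted p = 0.0108, and -2.22 ± 0.07, adjusted p = 7.6e-08). Atxn7, which holds Usp22 in SAGA, rose in both (1.76 ± 0.24, adjusted p = 0.00077, and 1.74 ± 0.09, adjusted p = 9.7e-07). Atxn7l3 and Eny2, SAGA partners from the same list, did not. They missed the threshold in OTUB1_KD (0.17 ± 0.12, adjusted p = 0.245, and -0.40 ± 0.20, adjusted p = 0.11). Both were lower in SFD@M (-0.40 ± 0.05, adjusted p = 0.00017, and -0.84 ± 0.13, adjusted p = 0.00039). Of the 6 genes for ubiquitin and its activating enzymes, 2 were lower in OTUB1_KD and 5 in SFD@M, and 0 were higher.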

How the data were processed

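Polyadenylated RNA of 12 libraries, 3 in each of 4 groups, was sequenced on a DNA nanoball platform, per the labels' protocols. The authors deposited 1 table of 70659 transcripts with estimated counts and TPM for each library, per the file headers. Tools and build are named without a role: GRCm39, RSEM 1.3.1, Bowtie2 and DESeq2 1.4.5, per the submitters' processing notes. Strand handling in counting is not given in the sources used here. Transcripts were summed to 19212 genes by gene ID, and the estimated counts were rounded. RefSeq symbols matched 19155 genes, while 57 had no symbol (up to 0.342% of the counts in a library).

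Each comparison of 3 against 3 libraries was fitted over all genes with edgeR 4.0.16 (filterByExpr, TMM, robust quasi-likelihood test) in R 4.3.3, with no covariate, and p-values were adjusted over all genes tested by Benjamini-Hochberg at 0.05. The interaction was fitted over 12 libraries. CPM of single genes are TMM-scaled over all 12 libraries. The values for lists of marker genes and the CPM of 3 counts are scaled by library totals alone. Levels were compared between genes by TPM. DESeq2 1.42.0, limma 3.58.1 on log2(TPM + 1) and on log2(TPM + 0.1), other scalings and filters, the at least 2-fold threshold, a replicate block and leaving out each library were the alternatives. The fits were tested on simulated data. Same-numbered libraries had correlations of -0.25 to 0.078 in their deviations and were not taken as pairs.

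The members and lists were chosen with earlier results of these data known. Values in every library are given for the 12 called members with the smallest adjusted p in each direction of both main comparisons, for members called in the interaction and for the member with the highest mean TPM of each group. Usp17la was added after its values were seen. For Usp29, Usp17la and Usp17le, Blank and SFD@M are given as counts over the group. Role groups are from textbook knowledge. A planned description of the proteins was not run, since no protein table was used here. With 16062805 counts in the shallowest library, 3 counts correspond to 0.187 CPM.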

Additional observations from a re-analysis of the deposited data

Results flagged for a closer look

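The change in SFD@M against Blank differed from the change in OTUB1_KD against NC for 7 members by the interaction test of edgeR over 12 libraries. They were 14.9% of the 47 members tested, a smaller share than the 23.1% of all 15304 genes. Usp2 had the widest difference, 2.77 on the log2 scale (adjusted p = 0.00214), followed by Usp35 with 1.33 (adjusted p = 0.00238). Usp54 differed by 0.80 (adjusted p = 0.0154), Usp32 by 0.57 (adjusted p = 0.0478), Usp22 by 0.53 (adjusted p = 0.0178) and Usp3 by 0.52 (adjusted p = 0.0266). Usp5 was the 1 member with a lower change in the treatment experiment, at -0.76 (adjusted p = 0.0189). The calls of Usp2, Usp35 and Usp54 held in all 12 fits that left out a library. Those of Usp22 and Usp5 were lost in 2 such fits each, that of Usp3 in 7 and that of Usp32 in 8. For all 7 members Blank and NC themselves differed, and the part of that difference was not tested. Groups of 3 libraries are too small for a test of single outlying samples.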

How the results depend on the processing

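In OTUB1_KD against NC, 27 to 37 members passed under the other scalings, filters, tools and the fit of all 12 libraries, against 28, and in SFD@M against Blank 39 to 43, against 41. Requiring at least a 2-fold change left 13, 21 and 3 members in OTUB1_KD against NC, SFD@M against Blank and Blank against NC. With a spread shared by all 12 libraries, 6 members passed in Blank against NC, against 34, and 5 in SFD@M against OTUB1_KD, against 0. Leaving out 1 library at a time gave 22 to 35 members in OTUB1_KD against NC, 41 in every fit of SFD@M against Blank, 30 to 34 in Blank against NC, 0 to 2 in SFD@M against OTUB1_KD and 3 to 15 in the interaction. Same-numbered libraries were not taken as pairs, though 3 libraries per group cannot settle whether they are. With a replicate block, 26, 41, 34 and 0 members passed in these 4 comparisons and 4 in the interaction, against 7. With that block Usp1 passed in OTUB1_KD (-0.99, adjusted p = 0.0114). In the main fits the share of members that passed was near that of all genes. It was 60.9% against 65.7% in OTUB1_KD and 89.1% against 88.1% in SFD@M. Under other scalings, filters and tools, and without single libraries, the shares over all genes were not counted. The counts above therefore do not set the family apart from other genes.

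Signs turned only for members that had not passed the test. Usp16 in OTUB1_KD went from 0.02 to -0.0044 with no filter, -0.15 on log2(TPM + 1) and on log2(TPM + 0.1), -0.01 with all 12 libraries, -0.0031 with the replicate block, and -0.0038, -0.02, -0.12 and -0.04 without NC replicate 1, NC replicate 3, OTUB1_KD replicate 1 and OTUB1_KD replicate 2, with a highest value of 0.17 without OTUB1_KD replicate 3. Usp4 went from -0.02 to 0.04 with library totals and 0.03 without OTUB1_KD replicate 2, Usp5 to 0.03 without that library, and Usp53 to -0.02 without OTUB1_KD replicate 1. Without OTUB1_KD replicate 3 they were at -0.13, -0.27 and 0.48. Usp22 in SFD@M went from 0.04 to -0.22 on log2(TPM + 1), -0.23 on log2(TPM + 0.1) and ran from -0.01 without Blank replicate 1 to 0.09 without SFD@M replicate 1. On log2(TPM + 1) the median of all genes was -0.02 in OTUB1_KD and -0.03 in SFD@M, in place of 0.16 and 0.23, and that of the members -0.61 and -0.70. The causes were not tested. Of the values of named members under alternatives, 846 kept their direction and side of the threshold, 22 lost the call, 15 gained it and 16 changed sign. At this depth, members under 0.187 CPM cannot be compared.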
